A study of Drosophila melanogaster with 3 samples.

Results

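The peaks described here are 587 Runt-GFP peaks of Drosophila melanogaster embryos that lay just under the list passing the irreproducible discovery rate (IDR) threshold and that overlapped strong peaks in every biological replicate. They are called members. IDR is a measure of how well peak ranks hold between replicates, and the IDR list of this study was exactly the 3065 strongest of the 30000 peaks called on the pooled replicates. The next 3065 pooled peaks, ranks 3066 to 6130 by the authors' signal value, formed the band that was searched. A band peak became a member when it overlapped, by at least 1 base, 1 of the 6130 strongest peaks in each of the 3 replicate lists. Members were thus chosen by signal and by replicate overlap, and both are given as a description with no test. The 587 members were 19.2% of the band (95% exact Clopper-Pearson interval 17.8 to 20.6). The other 2478 band peaks missed at least 1 replicate.

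The assay was ChIP-seq, in which DNA attached to a protein is recovered from chromatin with an antibody and sequenced. All samples belonged to 1 group of 3 biological replicates: whole embryos aged 0 to 16 hours, of a stable transgenic line whose Runt carried GFP at its C-terminus, precipitated with an anti-GFP antibody from sonicated chromatin. Embryo sex was not recorded, and there was no second genotype or treatment. Every list was called against a control alignment that the replicates shared, so the replicate lists are not fully independent. The tagged protein was read across all cell types and many stages of the embryo together, and the sources used here do not say which promoter drives it or whether the line also keeps untagged Runt.

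Runt is the founding member of the RUNX family of transcription factors, which bind DNA through the Runt domain together with a CBF-beta partner, Brother or Big brother in flies. RUNX factors activate some genes and repress others, in part by recruiting the co-repressor Groucho. In the early fly embryo Runt acts as a pair-rule factor during segmentation and in signalling X-chromosome number to Sex-lethal, and it has later functions in neurons.

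The sequences given first show what member summits look like around the RUNX consensus, which was searched as TGNGGTN with C or T at each N, on either strand. Each is the window of 101 bases centred on the pooled summit, on the plus strand of dm6, with the consensus match in capitals. The 6 strongest members that held the consensus, leaving out a chromosome arm not printed here, lay in the promoter of pes (chr2L:7993286-7993386), an intron of Nha1 (chr2L:6868438-6868538), an intron of cpo (chr3R:17965598-17965698), intergenic sequence nearest to tal-1A (chr3R:13801670-13801770), an intron of sens-2 (chr2L:6826534-6826634) and a promoter nearest to CG42337 (chr3L:21194478-21194578). These genes encode the scavenger receptor Peste, a sodium/proton exchanger, the RNA-binding protein Couch potato, a tarsal-less micropeptide, a relative of the zinc-finger factor Senseless and a protein given no role here.
pes: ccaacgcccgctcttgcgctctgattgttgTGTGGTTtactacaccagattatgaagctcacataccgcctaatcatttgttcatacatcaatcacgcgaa
Nha1: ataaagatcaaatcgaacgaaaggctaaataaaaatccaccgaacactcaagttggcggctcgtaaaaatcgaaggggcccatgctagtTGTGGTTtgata
cpo: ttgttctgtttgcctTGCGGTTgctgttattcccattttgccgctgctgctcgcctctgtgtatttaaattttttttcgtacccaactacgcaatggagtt
tal-1A: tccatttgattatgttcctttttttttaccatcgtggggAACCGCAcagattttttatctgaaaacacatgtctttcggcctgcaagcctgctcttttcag
sens-2: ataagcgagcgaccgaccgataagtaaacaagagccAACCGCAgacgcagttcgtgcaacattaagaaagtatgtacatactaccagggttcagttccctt
CG42337: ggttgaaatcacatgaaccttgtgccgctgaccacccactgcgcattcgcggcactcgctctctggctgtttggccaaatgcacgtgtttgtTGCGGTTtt

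The same arm was left out of the windows that follow. For contrast, the strongest member of all had no RUNX match; it lay in the promoter nearest to nop5 (chr2L:6918929-6919029), which encodes a core protein of small nucleolar ribonucleoproteins. The strongest member with a GATA match lay in the promoter of the ABC transporter gene Mrp4 (chr3R:11568952-11569052). The strongest with a DREF match lay in the promoter of the cathepsin gene CtsF (chr3R:5251748-5251848) and overlapped an IDR peak. No member held 3 RUNX matches. The strongest with 2, chosen after its values were seen, was intergenic and nearest to CG9029 (chr2L:5887033-5887133). Chosen in the same way, the strongest members on the printed arms with the motif of the promoter factor M1BP lay at the starts of bun (chr2L:12546616-12546716), a TSC22-family gene, and of CG9356 (chr3R:9404232-9404332). Capitals mark the named motif.
nop5: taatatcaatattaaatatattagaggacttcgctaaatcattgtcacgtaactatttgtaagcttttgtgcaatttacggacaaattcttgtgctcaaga
Mrp4: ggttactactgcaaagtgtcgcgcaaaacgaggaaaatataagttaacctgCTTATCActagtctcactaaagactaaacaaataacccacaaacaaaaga
CtsF: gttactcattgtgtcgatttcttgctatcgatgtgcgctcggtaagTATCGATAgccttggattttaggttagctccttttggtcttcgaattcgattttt
CG9029: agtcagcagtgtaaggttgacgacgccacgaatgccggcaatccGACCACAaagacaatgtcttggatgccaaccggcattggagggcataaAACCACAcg
bun: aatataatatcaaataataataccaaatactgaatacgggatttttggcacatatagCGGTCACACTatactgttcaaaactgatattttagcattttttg
CG9356: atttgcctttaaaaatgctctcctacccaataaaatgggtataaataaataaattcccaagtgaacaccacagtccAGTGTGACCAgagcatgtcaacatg

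Most members stood close to the IDR limit. The band of 3065 ranks, cut into 5 runs of 613 peaks, held 269 members in the strongest run (43.9%), then 143 (23.3%), 81 (13.2%), 54 (8.81%) and 40 (6.53%) in the weakest. Member signal ran between 88.1 and 131, with a median of 116, against a median of 102 in the other band peaks and of 190 in the IDR peaks. The −log10 q-value of members had a median of 3.23, and 114 members shared the maximum of the pooled list, 3.82. At the upper limit the last IDR peaks had signals of 130.746 and 130.739, and the peaks at ranks 3066 and 3067 had 130.738 and 130.716; of these 2, the peak at rank 3066 is a member. At the lower limit ranks 6129 and 6130 had 87.936 and 87.931, and ranks 6131 and 6132 both 87.928; none of the 4 is a member. Signal therefore changed by very little across either limit.

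Replicate 1 was the one most often missed. Of the band peaks, 1634 (53.3%) were matched in replicate 1, 1897 (61.9%) in replicate 2 and 2041 (66.6%) in replicate 3. By number of replicates, 587 were matched in all 3, 1418 in 2, 975 in 1 and 85 in none. Under the same overlap rule 2680 of the 3065 IDR peaks (87.4%) were matched in all 3. The peaks that matched the members had median ranks of 3505, 3762 and 3969 in replicates 1, 2 and 3, so most lay past the rank at which the IDR list ends in the pooled list. Within that rank lay 235 (40.0%), 201 (34.2%) and 188 (32.0%) of them.

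**Figure D1:**
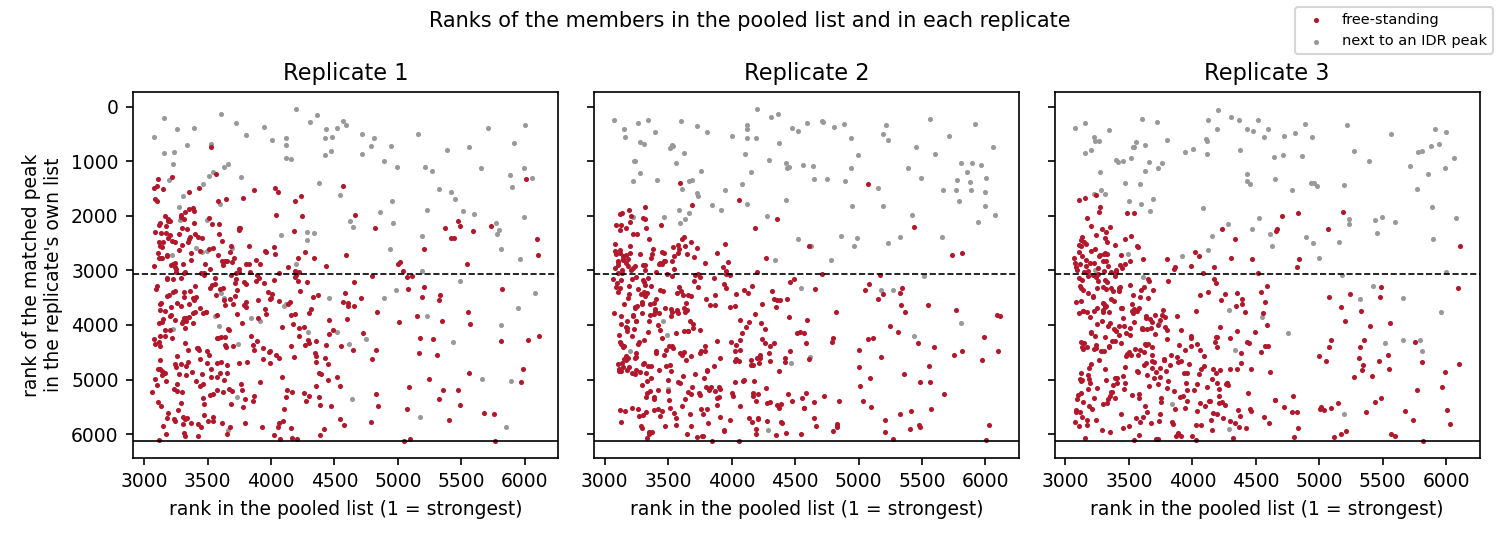
Rank of each member in the pooled list (horizontal axis) against the rank of its strongest overlapping peak in each replicate's own list (vertical axis, strongest at the top), 1 point per member. The dashed line marks the size of the IDR list, 3065, and the solid line the limit of 6130. Grey points, members next to an IDR peak, reach ranks of 35, 37 and 52 in replicates 1, 2 and 3, while red points, free-standing members, start at 733, 1396 and 1624.

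A part of the members were immediate neighbours of IDR peaks. In all, 119 members (20.3%, 17.1 to 23.8) overlapped an IDR peak, against 11 of the 2478 other band peaks (0.444%). A replicate peak that covers both an IDR peak and its neighbour gives the neighbour a match, so this share follows in part from the rule. With members whose matching replicate peak overlapped an IDR peak, 123 members stood next to an IDR peak, and 464 (79.0%) were free-standing. Of the 123, 59 were at promoters (48.0%) and 46 in introns (37.4%). Their presence bears on everything that follows, so each main result is also given for the 464 free-standing members. The median distance to the nearest IDR summit was 4651 bases for all members and 8328 for free-standing ones, against 7900 for the other band peaks. In the replicate where this was most frequent, 32 of all members, those next to IDR peaks included, shared a replicate peak with another member.

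Summits of the replicates lay farther from the pooled summit in members than in IDR peaks. The median distance was 64, 49 and 44 bases in replicates 1, 2 and 3 for members (mean of the medians 52.3 ± 10.4, SD, n = 3). In free-standing members it was 49, 32 and 29 bases (36.7 ± 10.8). The other band peaks had 42, 24 and 20 bases (28.7 ± 11.7), and the IDR peaks 27, 17 and 15 (19.7 ± 6.43). In each of the 3 replicates the order was the same, with members widest, free-standing members next and IDR peaks narrowest, and replicate 1 was the widest in every set. The distance depends on which peaks overlap, so no test was made.

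The RUNX consensus was more frequent at member summits than beside them. It occurred within 50 bases of 66 of 587 summits (11.2%, 8.80 to 14.1), against 27 windows of the same width centred 500 bases to the left (4.60%, 3.05 to 6.62). In 64 members the match was at the summit alone and in 25 in the flank alone (two-sided exact McNemar test, p = 4.32e-05). Windows tiled over the genome held it in 4.38% of cases. Free-standing members gave 53 of 464 at the summit (11.4%, 8.67 to 14.7) and 20 in the flank (4.31%; exact McNemar p = 0.000142). The 123 members next to an IDR peak gave 13 (10.6%, 5.75 to 17.4) and 7 (5.69%), a difference that did not pass the test (exact McNemar p = 0.210).

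The excess was present at the summits that each replicate gave on its own. At the matching peaks' summits the consensus occurred in 8.18%, 10.7% and 8.18% of members in replicates 1, 2 and 3 (9.03% ± 1.48, SD, n = 3). The flanks of the same summits held it in 3.58%, 2.90% and 3.75% (3.41% ± 0.451). The lowest summit share thus lay above the highest flank share, and the exact McNemar p was 0.00131, 9.84e-08 and 0.00219. For members next to an IDR peak the matching replicate peak can cover both, so its summit can be that of the IDR peak. At replicate summits the consensus was not counted apart in free-standing members.

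No difference passed the test between members and either stronger peaks or less reproducible peaks of the same ranks in how often they held the consensus. IDR peaks held it in 287 of 3065 summits (9.36%, 8.36 to 10.5), so the members' share was 1.88 percentage points higher, with a 95% Newcombe interval of −0.669 to 4.86 (two-sided Fisher's exact test, p = 0.170, adjusted over both comparisons 0.249). The other band peaks held it in 238 of 2478 (9.60%, 8.47 to 10.8), a difference of 1.64 points with an interval of −0.973 to 4.66 (Fisher's exact p = 0.249, adjusted 0.249). Free-standing members gave differences of 2.06 points (−0.742 to 5.42) from IDR peaks and 1.82 (−1.04 to 5.22) from other band peaks. At the summits of replicates 1 and 3 both differences were below 0. Without replicate 2 in the rule, which gave 1033 members, they were 2.25 and 2.56 points and passed (Fisher's exact p = 0.0407 and 0.0296). Within the band the share was 11.2% with 3 replicates matched, 10.2% with 2, 8.51% with 1 and 12.9% (6.64 to 22.0) among the 85 peaks with none. The 3065 pooled peaks after the band held the consensus in 8.52% (7.55 to 9.56) and the weakest 3065 in 6.23% (5.40 to 7.15).

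**Figure D2:**
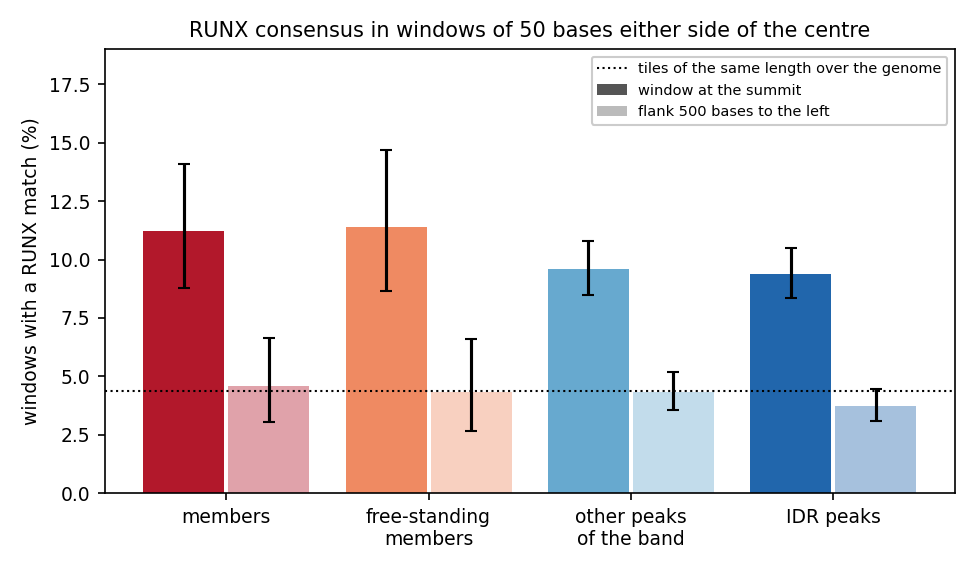
Share of 101-base windows with a RUNX match at pooled summits (full colour) and in flanks 500 bases to the left (pale) in members, free-standing members, other peaks of the band and IDR peaks. Error bars are 95% exact Clopper-Pearson intervals and the dotted line is the share in genome tiles, 4.38%. Summit shares run between 9.36% and 11.4% with overlapping intervals, and each lies above its flank.

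Matches in members clustered within 50 bases of the summit. In bins of 50 bases, 6.30% of members had a match centred in the bin left of the summit and 5.45% in the bin right of it. All other bins out to 500 bases held between 0.852% and 4.09%. The median distance between a match and the summit was 22 bases within the window, against 21 in the other band peaks and 20 in IDR peaks. This distance is bounded by the window and does not measure the clustering. Of the 66 members with a match, 63 had 1 and 3 had 2. Of their 69 matches, 29 (42.0%) had C at the first N and T at the last, 16 (23.2%) had T at both, 12 (17.4%) had C at both and 12 (17.4%) had T at the first and C at the last. IDR peaks had 38.0%, 34.4%, 14.4% and 13.1% of their 305 matches in these forms.

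**Figure D3:**
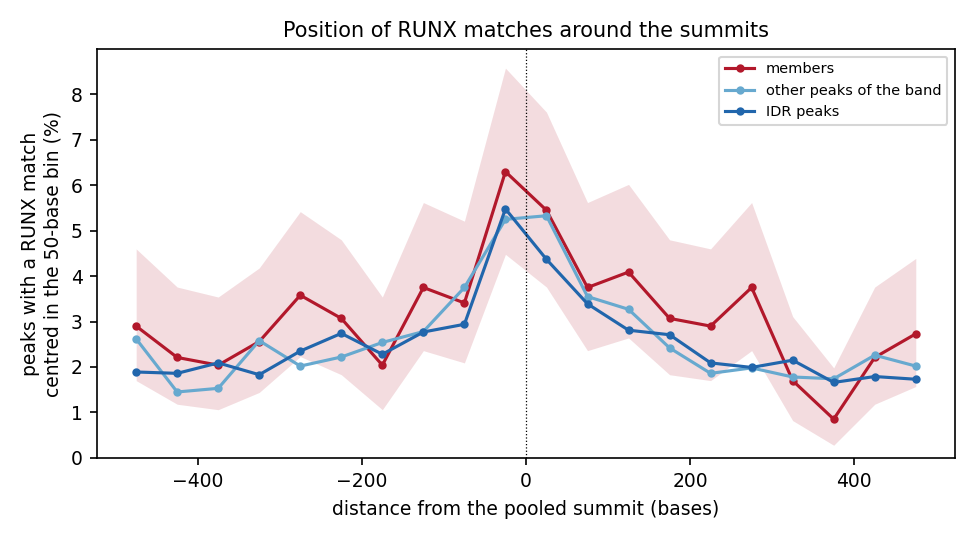
Share of peaks with a RUNX match centred in each 50-base bin by distance from the pooled summit, for members, other peaks of the band and IDR peaks. The band around the members' line is its 95% exact interval. All 3 lines peak in the bins beside the summit, where members have 6.30% and 5.45%.

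The consensus was present in members of every location, but in exons no more often than in flanks. The flanks held it in 4.64% of promoter, 3.77% of intronic, 6.38% of intergenic and 5.88% of exonic members. The consensus was found at 24 of 237 promoter summits (10.1%, 6.60 to 14.7), 28 of 239 intronic (11.7%, 7.93 to 16.5), 13 of 94 intergenic (13.8%, 7.57 to 22.5) and 1 of 17 exonic summits (5.88%, 0.149 to 28.7). Promoters against introns and intergenic sequence together gave a difference of −2.19 points (−7.30 to 3.28; two-sided Fisher's exact p = 0.504). The promoters of IDR peaks held it in 6.74% (5.48 to 8.20) and those of the other band peaks in 7.99% (6.37 to 9.87), with intervals that overlap the members'. IDR peaks had it in 10.4% of introns and 14.3% of intergenic summits.

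Of 13 motifs searched at member summits, 2 (15.4%) passed the exact McNemar test against flanks after adjustment over the 13, RUNX (adjusted p = 0.000562) and M1BP. The M1BP motif belongs to a zinc-finger protein known for paused promoters of housekeeping genes. It was present in 9 member windows (1.53%, 0.703 to 2.89) and in 0 flanks, which allows a share of up to 0.511% at 3 counts (exact McNemar p = 0.00391, adjusted p = 0.0254). Other band peaks held it in 0.726% (0.431 to 1.15), IDR peaks in 0.620% (0.374 to 0.966) and genome tiles in 0.0761%. No test was made between the sets, since the motif was singled out after its values were seen. The M1BP call rests on few peaks. Over the alternatives its exact McNemar adjusted p ran between 0.000136 and 1.00, with 0.0508 in free-standing members, 0.0841 without replicate 1 in the rule and 0.0730 without replicate 2.

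Of the 9 members with M1BP, 8 were at promoters. They lay 28 bases before the nearest start at ZnT49B, a zinc transporter gene, 55 before at bun, 232 before at CG12863, 13 before at CG9356, 5 after at CG4820, 65 before at Top1 (DNA topoisomerase 1), 22 before at CG3662 and 44 before at CG6013. The remaining one was in an intron of spdi, 11268 bases after the nearest start, that of vnd, a homeobox gene of the ventral nervous system. The M1BP motif shares letters with the end of the RUNX consensus, but in members no match of the one overlapped a match of the other. Without the 9 windows the consensus stood in 65 of 578 members (11.2%) against 26 flanks (exact McNemar p = 3.48e-05).

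The remaining 11 motifs, of patterning, core promoter and tissue factors, did not pass, with an exact McNemar adjusted p of 0.915 or more. All were searched on both strands, and summit and flank shares lay close together for most. GATA, searched as NGATAAG with A or T at N, was present in 4.43% of member summits, 3.24% of flanks and 2.45% of genome tiles. The homeodomain motif TAATTA was present in 7.67% of summits, 6.81% of flanks and 6.47% of tiles. The Twist and Snail E-box, CANATG with C or T at N, was in 8.86% of summits, 8.01% of flanks and 7.08% of tiles. Zelda is the pioneer factor of the early embryo, and its motif CAGGTAG was in 0.852% of summits, 0.170% of flanks and 0.534% of tiles. Bicoid's TAATCC was in 1.87% of summits, 2.39% of flanks and 3.43% of tiles. DREF, which marks housekeeping promoters, was searched as TATCGATA and was in 0.511% of summits, 0.341% of flanks and 0.275% of tiles. The GAGAGAG run of GAGA factor stood in 2.21% of summits, 2.73% of flanks and 1.24% of tiles. Stat92E, searched as TTCNNNGAA, was in 2.90%, 3.92% and 2.92% in the same order, and the Myc-type E-box CACGTG in 1.02%, 1.36% and 1.17%. The Su(H) sequence NGTGGGAA, with C or T at N, was in 0.170%, 0.341% and 0.570%, and Mef2 in 4.26%, 3.75% and 3.20%. Mef2 was at 7.21% and DREF at 0.718% in IDR summits.

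A search with no motif in hand gave 1 form of the RUNX core, TGCGGT, as the only sequence enriched at member summits. Of 2080 six-base sequences, each counted with its reverse complement, 1 was more frequent at summits than in flanks (0.0481% of those tested) and 2 were less frequent (0.0962%) at an adjusted p below 0.05. The enriched one, read TGCGGT on one strand, stood in 53 summits (9.03%) and 16 flanks (2.73%; exact McNemar adjusted p = 0.0109). The other form of the core, TGTGGT, named after its values were seen, did not pass. It stood in 7.33% of summits and 4.94% of flanks (exact McNemar adjusted p = 0.802). The less frequent ones were CCAGGA in 0.341% of summits against 4.09% of flanks (exact McNemar adjusted p = 0.0109), and CAGGAA in 1.02% against 5.28% (adjusted p = 0.0286). Among the 10 with the smallest p, ATATAA was the other one more frequent at summits, in 16.4% against 9.37% (exact McNemar adjusted p = 0.159). The others were less frequent at summits, with adjusted p between 0.0608 and 0.187: CATTCC in 1.02% of summits and 4.94% of flanks, CAGGAC in 0.341% and 2.73%, CGATCC in 1.02% and 4.43%, CCCTGC in 1.19% and 4.60%, ATGTCC in 0.511% and 3.24%, and TCTCCA in 1.70% and 5.45%. At an unadjusted p under 0.05 there were 159, 69 of them more frequent at summits. The enriched sequence lies within the RUNX consensus and is no separate evidence. No sequence was called enriched in free-standing members, against flanks 500 bases to the right or against flanks 1000 bases to the left.

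Member summits lacked most of the fall in GC content seen at IDR summits. Mean GC in the window was 39.3% at member summits and 41.7% in flanks, against 34.4% and 42.3% for IDR peaks. At the replicates' own summits the gap between summit and flank was −2.43, −2.52 and −3.06 points in members (−2.67 ± 0.342, SD, n = 3). In the other band peaks it was −1.98, −1.91 and −2.65 (−2.18 ± 0.409), and in IDR peaks −7.04, −7.45 and −7.80 (−7.43 ± 0.379). Free-standing members had −2.40 ± 0.370. In every replicate the members' gap was thus smaller than that of IDR peaks by more than the spread between replicates, and near that of the other band peaks. That spread is taken over the same peaks at each replicate's summits, so it is no sampling spread, and no test was made. The sequence TTAAAA, named after its values were seen, stood in 19.8% of member summits and 30.9% of IDR summits.

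Members lay mainly at promoters and in introns. A summit counted as promoter when a transcript start was annotated within 500 bases, otherwise as exon, intron or intergenic. Of the members 237 (40.4%, 36.4 to 44.5) were at promoters, 239 (40.7%) in introns, 94 (16.0%) intergenic and 17 (2.90%) in exons. The promoter share differed from the 45.0% of IDR peaks by −4.62 points (−8.89 to −0.232), which did not pass after adjustment over the 4 classes (two-sided Fisher's exact p = 0.0412, adjusted p = 0.165). In free-standing members it was 38.4%, a difference of −6.63 points from IDR peaks (−11.3 to −1.80) that passed (Fisher's exact adjusted p = 0.0312). It also passed without replicate 1 in the rule (−5.84 points, Fisher's exact adjusted p = 0.00252) and without replicate 2 (−5.30 points, Fisher's exact adjusted p = 0.0118). With each replicate list limited to the size of the IDR list, 80 members remained and the difference was 5.01 points, of the opposite sign. Against the other band peaks, with 39.4% at promoters, the difference was 0.988 points (−3.36 to 5.44; Fisher's exact adjusted p = 1.00). At the replicates' own summits the members' promoter share was 38.7%, 40.9% and 40.9%, against 44.7%, 45.0% and 44.7% for IDR peaks. The differences were −6.01, −4.16 and −3.86 points, and only that of replicate 1 passed (Fisher's exact adjusted p = 0.0294, 0.253 and 0.339). The values of each set come from the same peaks, so their spread is no sampling spread.

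**Figure D4:**
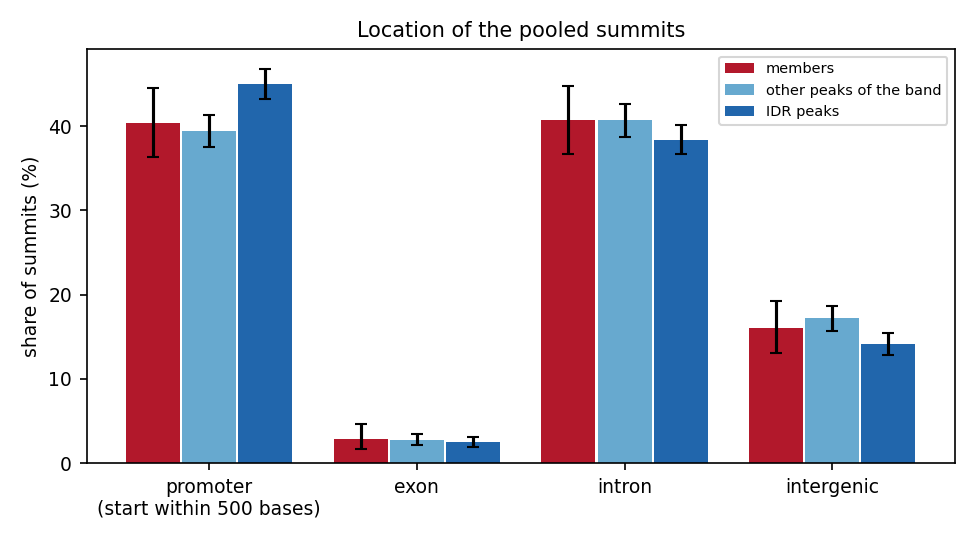
Share of pooled summits in promoters, exons, introns and intergenic sequence for members, other peaks of the band and IDR peaks, with 95% exact Clopper-Pearson intervals. Promoters hold 40.4% of members, 39.4% of the other band peaks and 45.0% of IDR peaks, and in the other classes the members' interval overlaps that of each other set.

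At promoters the position of the summit was described with no test. The median distance to the nearest protein-coding start was 130 bases in members, 122 in the other band peaks and 153 in IDR peaks. Summits lay upstream of the start in 66.2% of the members' promoters, 64.7% of the other band peaks' and 75.8% of the IDR peaks'. Starts on both strands were within 500 bases at 67 of the 237 (28.3%, 22.6 to 34.5), against 30.5% (28.1 to 33.0) of IDR promoters. Over all locations the median distance was 1069 bases in members, 1464 in the other band peaks and 910 in IDR peaks, and 24.9% of members were over 5 kb from any protein-coding start.

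The X chromosome carried fewer members per length than the autosomes. It held 79, or 3.36 per Mb, against 506, or 4.64 per Mb, on the large autosome arms together. The ratio was 0.723 (0.563 to 0.918; two-sided exact binomial p = 0.00675), and 0.731 in free-standing members (0.551 to 0.955; exact p = 0.0205). The 4 large autosome arms ranged between 4.46 and 4.91 members per Mb, so X lay under each of these, while the small chromosome 4 held 2 members, or 1.48 per Mb. The other band peaks had a ratio of 0.788 (0.703 to 0.882) and the IDR peaks 0.926 (0.841 to 1.02). The share on X was 13.5% in members and 16.7% in IDR peaks, a difference that did not pass (two-sided Fisher's exact p = 0.0575). Counted per protein-coding gene the ratio was 0.830 and did not pass (exact p = 0.126). X and autosome copy number differs between the sexes, whose mix was not recorded, and its part in the ratio was not tested.

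The 20 strongest members lay next to genes of many functions. Of these, 10 were at promoters, 6 in introns, 3 intergenic and 1 in an exon, and 1 overlapped an IDR peak. The strongest, nearest to nop5 (chr2L:6918777-6919180, 236 bases before the start), ranked 5227, 3166 and 2774 in replicates 1, 2 and 3. The member at Sys1, a Golgi membrane protein gene (chr3R:8652768-8653171, 41 bases before the start), ranked 1486, 3789 and 5774. Rcd2 had the member that overlapped an IDR peak, whose summit was 204 bases away, and its ranks of 560, 247 and 394 are those of a replicate peak covering both. Replicate 1 thus gave Sys1 a better rank than replicate 3 did, and gave nop5 a poorer one.

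Other promoter members among the 20 were nearest to CG7182, to Phlpp, which encodes a protein phosphatase, and to Jupiter, which encodes a microtubule-associated protein. Further ones were at MBD-like, a relative of methyl-CpG-binding proteins, pes, Adk2, an adenylate kinase gene, and Mrp4. Jupiter ranked 1698, 2703 and 5598 in replicates 1, 2 and 3, and its summit was 10 bases after the start. MBD-like, 32 bases before the start, ranked 2289, 2160 and 5359. The member at pes, with a RUNX match, had near-equal ranks of 3338, 3224 and 2994.

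Intronic members among the 20 lay in genes of different functions. Mkp3, a phosphatase that switches off the MAP kinase ERK (chr3L:19073913-19074316), ranked 3287, 3389 and 2540 in replicates 1, 2 and 3. Pvf3, a ligand of the PDGF and VEGF type (chr2L:7123713-7124116), ranked 4809, 2831 and 3773. Eip75B, an ecdysone-induced nuclear receptor (chr3L:17968645-17969048), ranked 2778, 2259 and 4982. Nha1, with a RUNX match, ranked 1324, 4183 and 5600. The tetraspanin gene Tsp96F and the Rab regulator gene Evi5 completed the intronic members, and Pkn, which encodes a protein kinase, had the exonic one. The intergenic members were nearest to CG5151, CG13949 and Myc, the growth-promoting transcription factor, whose start was 12559 bases away (chrX:3360398-3360801, ranks 2168, 4811 and 3287). Of the 20 only pes and Nha1 held the RUNX consensus.

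Members touched 1166 of 13945 protein-coding genes (8.36%), counting summits inside the gene or within 5 kb of it, and free-standing members touched 890. Of the 1166 genes 738 (63.3%) also had an IDR summit, and 428 (36.7%) had a member alone. Over all protein-coding genes, 4714 (33.8%) had an IDR summit by the same count. The share with a member was 5.16%, 6.26%, 7.69% and 14.3% in 4 equal classes of gene span, shortest to longest, so long genes had more. Counting each summit for its nearest start alone gave 514 genes (3.69%). A summit within reach of several genes was counted for each, as happened for 332 members, and 42 members had no such gene. The gene groups that follow are set beside the 8.36%, with no test, and nothing particular to a group is read from the shares.

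Of 7 RUNX factors and partners, none had a member within reach. These were run itself, lozenge (lz), RunxA, RunxB, the CBF-beta partners Bro and Bgb and the co-repressor gro. A member nevertheless had run as its nearest start, 15578 bases past it (chrX:20709815-20710218, signal 125, ranks 4335, 5312 and 2696 in replicates 1, 2 and 3). Another had RunxA, 7738 bases before its start (chrX:20631309-20631712, signal 126, ranks 5806, 2031 and 4485). Both were free-standing and neither held the RUNX consensus. The gene run had 4 IDR summits within reach.

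Of the 9 pair-rule genes, which divide the embryo into segments, 1 (11.1%) had a member. This was slp1, a forkhead gene, with an intergenic summit 2201 bases from its 5′ end (signal 128, ranks 2742, 2920 and 4785 in replicates 1, 2 and 3) and no IDR summit. The pair-rule genes run, eve, ftz, hry, odd, prd, slp2 and opa had none. Among 13 gap and head genes, 1 (7.69%) did, cnc, whose summit was at its promoter (ranks 2099, 5832 and 3484). Of 14 segment polarity genes, which fix boundaries within segments, 3 (21.4%) did. These were the engrailed paralogue inv, the Hedgehog receptor ptc, whose member held the RUNX consensus, and the Wnt antagonist nkd, and all of them also had IDR summits.

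Of 12 sex-determination genes 2 (16.7%) had a member, both without an IDR summit. A summit lay in intronic sequence within emc, an inhibitor of bHLH factors that count X chromosomes (chromosome 3L, summit 751875, signal 119, ranks 3811, 2680 and 6009 in replicates 1, 2 and 3). The other was 2903 bases from the 5′ end of the splicing regulator tra, in the promoter of its neighbour l(3)73Ah (ranks 3481, 4468 and 5070). Sxl, run, sc, sisA, upd1, dpn, da, gro, her and msl-2 had no member.

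Of 11 homeotic genes and cofactors, 4 (36.4%) had a member, and 3 had a free-standing one. Antp held 2, the stronger in an intron next to an IDR peak (signal 128, ranks 1350, 4479 and 786). For Ubx, which specifies the third thoracic segment, no IDR summit was within reach. The only member within reach lay past the end of the gene, in the promoter of CG14907, with a RUNX match and ranks of 4275, 4517 and 5763. The homeodomain cofactor gene hth had an intronic member (ranks 4507, 3665 and 3643) and 5 IDR summits. The member near Scr overlapped an IDR peak and was nearest to Dfd. Genes of this group are long, with a median span of 26862 bases.

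Of 21 dorsoventral and mesoderm genes, 5 (23.8%) had a member, 2 of them a free-standing one. The strongest was in an intron of the muscle regulator Mef2 (signal 129, ranks 2184, 2719 and 5740), which held 2. The others were near bin, a forkhead gene of the visceral mesoderm, past the end of vnd in an intron of spdi, near brk, a repressor of Dpp targets, and in an intron of the FGF receptor gene htl. The members at brk and htl held the RUNX consensus. Of 25 neuroblast genes 3 (12.0%) had one, zfh2, SoxN and hth, and of 14 neuronal genes 1 (7.14%), the active-zone gene brp. Of 15 muscle structure genes 1 (6.67%) had one, Mlp84B, and of 14 genes of gut, fat body and blood 1 (7.14%), ush, with a member and 11 IDR summits.

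Signalling groups held few genes each. Of 18 genes of EGF, FGF and Ras signalling 4 (22.2%) had a member, led by aop and followed by sty (Sprouty), htl and S (Star), and 2 had a free-standing one. Of 18 Wnt and Hedgehog genes 4 (22.2%) did, all with free-standing members: the Wnt receptor gene fz2 (signal 125, ranks 5709, 4135 and 2920), the co-receptor gene arr, ptc and Apc. Of 15 genes of Notch signalling and the Enhancer of split complex 2 (13.3%) did, the neighbours E(spl)m4-BFM and E(spl)m3-HLH, by way of a single summit next to an IDR peak. Of 8 JAK/STAT genes 2 did, Stat92E and Socs36E, both through members next to IDR peaks.

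Of 19 axon guidance genes, 5 (26.3%) had a member, in each case a free-standing one and beside IDR summits of the same gene. The 4 with the strongest member were Ten-m, a teneurin (promoter, ranks 4034, 5022 and 4572), the midline repellent sli (ranks 3485, 3530 and 5800), the receptor phosphatase gene Ptp10D and the attractant NetA, and the fifth was the Netrin receptor gene fra. Their median span is 52624 bases. Of 16 ecdysone and nuclear receptor genes 3 (18.8%) had one, Eip75B with 3 summits, ftz-f1 with 2 and usp with 1. Of 19 chromatin regulators 4 (21.1%) did, Tlk, tara, the Brahma-complex gene osa and the insulator gene CTCF, whose summit was 3704 bases before its start and which had no IDR summit.

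Cytoplasmic ribosomal protein genes are short, and many of their members stood next to IDR peaks. Of 93, with a median span of 1318 bases, 17 (18.3%) had a member, through 16 summits. Only 7 of these 17 genes had a free-standing member, and 13 also had an IDR summit. Among those with the strongest members were RpS12 (ranks 1733, 2900 and 2657 in replicates 1, 2 and 3), RpL34b (4574, 3336 and 4636) and RpS18 (1841, 646 and 1203). The summits of RpS12 and RpL34b are at the promoters of neighbouring genes, Adk2 and CG9356. Of the 93 genes, 6 were the nearest start of a member. RpS14a and RpS14b, near-identical neighbours named after their values were seen, share 1 summit. IDR summits were within reach of 68.8% of the group, against 33.8% of all protein-coding genes.

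Mitochondrial ribosomal protein genes had a member in 5 of 73 (6.85%), mRpL20, mRpL19, mRpL55, mRpL34 and mRpL27, and were the nearest start of none. Proteasome genes had one in 5 of 48 (10.4%), led by Prosalpha4, Rpn12, Prosalpha3 and Prosbeta2R2, and were also the nearest start of none. The summit counted for Prosalpha4 lay at the promoter of kat80 (ranks 3047, 2986 and 2401). Larval and adult cuticle protein genes have a median span of 989 bases and adult chemoreceptor genes one of 1691 bases. What part gene span has in the shares of these groups was not tested. Of 115 larval and adult cuticle protein genes 3 (2.61%) had a member, Cpr65Ea and Cpr65Eb sharing 1 summit and Cpr64Ad, and of 179 adult chemoreceptor genes 3 (1.68%), Or85f, Or45b and Ir76a.

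**Figure D5:**
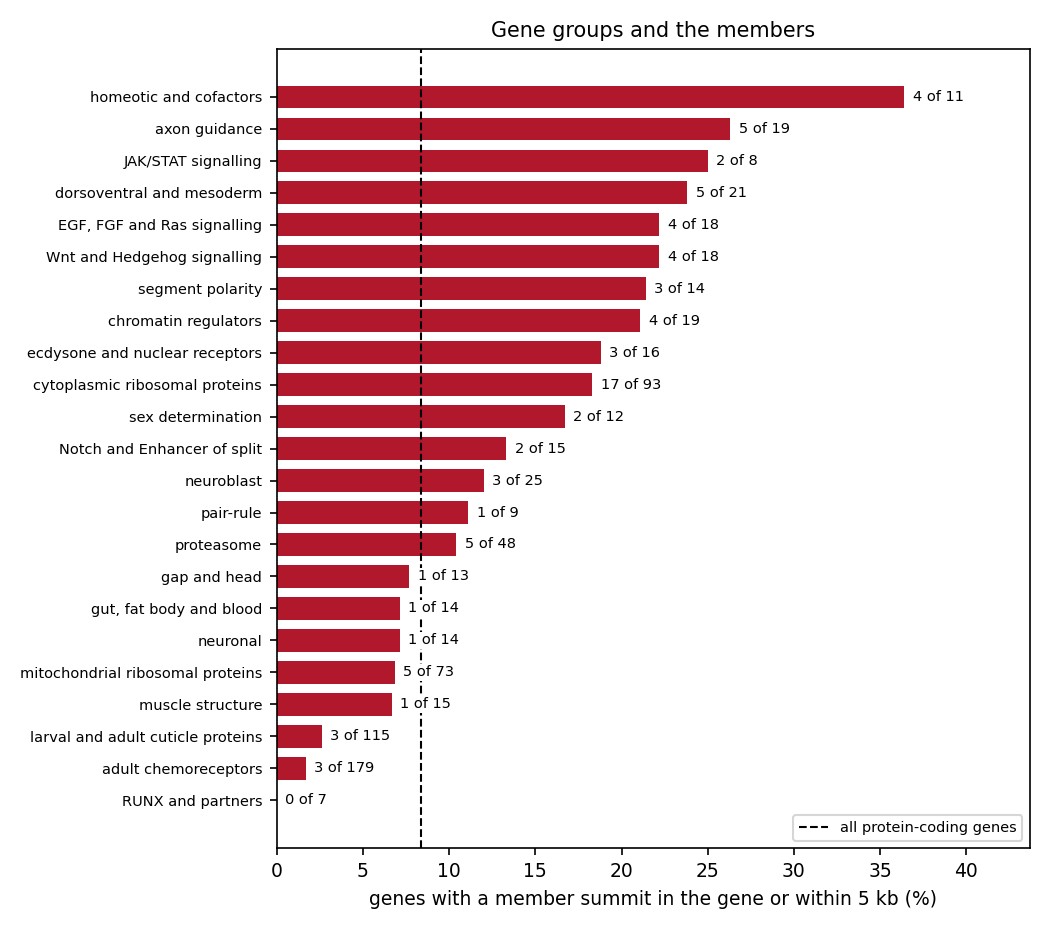
Share of the genes of each group with a member summit inside the gene or within 5 kb, with counts beside the bars. The dashed line is the share over all protein-coding genes, 8.36%. The groups run between 36.4% (4 of 11 homeotic genes and cofactors) and 0 of 7 RUNX factors and partners.

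A few genes gathered several members. The ETS-family repressor gene aop, which acts downstream of Ras, had 5, the most of any gene, and all were free-standing. Of these, 4 lay in introns and 1 at the start (chr2L:2178527-2178930). The strongest (chr2L:2171468-2171871, signal 124) was 7084 bases past the nearest start, and none of the 5 held the RUNX consensus. Svil (a supervillin gene), atos, plh and sdt, which encodes the scaffold protein Stardust of the Crumbs complex, had 4 each. Of the members of atos 2 held the consensus, and of plh 1. sdt had 1 IDR summit beside its 4 free-standing members, while aop and Svil had 4, atos 3 and plh 6. The strongest member counted for sdt lay outside the gene, in an intron of slpr.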

How the data were processed

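Each replicate and the pooled replicates had a deposited list of 30000 peaks on dm6, called by the authors against a shared control, per the file headers and readme files; the authors' IDR list held 3065 peaks, exactly the strongest of the pooled list. Neither aligner, peak caller nor IDR threshold is given in the sources used here. The signal values were made by the authors, with no scaling stated per the file headers, and served here to order the peaks of each list. Deposited −log10 q-value and summit offset were taken as they stand. Read depth is unknown, so intervals cover counting error over peaks only.

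The members, gene groups, motifs and tests were chosen with earlier results of these data known. Genes were named by rule: the 20 strongest members, from each group the 4 genes with the strongest member or every gene of the pair-rule, RUNX and sex-determination groups, the genes with most members, and the 10 hexamers of lowest p; 1 gene so chosen is not reported here. The genes fra and mRpL27 fall outside this rule and were named after their values were seen. Sequences, with 1 chromosome arm left out, were those of the 6 strongest remaining members with RUNX and the strongest without it, with DREF, GATA or 3 RUNX matches.

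Summits were compared with the Release 6 sequence from RefSeq and Ensembl release 115 genes of BDGP6.54, whose arm lengths match dm6, and transposable element entries were left out. Motif presence within 50 bases was tested by exact McNemar tests against flanks and by Fisher's exact tests between peak sets. P-values were adjusted by the Benjamini-Hochberg method. Peaks are the units of these tests, while the 3 replicates are the only replication. All 268 genes listed by hand were matched, 4 of them through a synonym. Alternatives changed the overlap, rank limits, replicates, windows, flanks, motif forms, promoter and gene distances. The exact McNemar tests of the RUNX consensus and of six-base sequences were checked on simulated windows. These windows had equal base frequencies, which the real windows do not have. The other tests were not checked in this way. Computations used scipy 1.17.1 and statsmodels 0.14.6 under Python 3.11.15, with pandas 2.3.3, numpy 2.4.6 and, for plots, matplotlib 3.10.9.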

Additional observations from a re-analysis of the deposited data

How the results depend on the processing

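Of 23 alternatives, 1, the use of free-standing members alone, was chosen after seeing the data. The RUNX excess over flanks kept its direction in all 17 that apply to it and lost the threshold in 1, with each replicate list limited to the size of the IDR list, where 80 members remained (7.50 points, exact McNemar p = 0.109). That limit also gave a promoter difference from IDR peaks of 5.01 points, an X ratio of 0.661 (exact p = 0.244), 0 motifs and 0 six-base sequences past the threshold, 219 genes and a summit distance of 192 bases, all from fewer peaks. With replicate lists up to 4 times the IDR list there were 2079 members and 3201 genes, 6 motifs and 57 six-base sequences passed, the summit distance was 34.7 bases, and the promoter share differed by −6.99 points from IDR peaks and −4.90 from other band peaks (Fisher's exact adjusted p = 2.56e-06 and 0.0407). Overlap of at least 0.5 of the shorter peak gave promoter differences of −8.30 from IDR peaks, past the threshold, and −3.40 from other band peaks, 1 motif, 0 six-base sequences and a distance of 38.3 bases. The upper 0.5 of the band gave a promoter difference of −0.956 from other band peaks, 1 motif, 0 six-base sequences and −0.215 points for DREF. Free-standing members gave −6.63 (again past the threshold) and −1.02 for promoters, 1 motif, 0 six-base sequences and 36.7 bases. Windows of 25 bases either side left 1 motif and −0.170 for DREF, and flanks 500 bases to the right or 1000 to the left left 0 six-base sequences. The RUNX differences from IDR and other band peaks became −0.0988 and −0.0818 with the longer consensus, −1.09 and −0.692 at summits of replicate 1, and −0.595 and −1.16 at those of replicate 3. Replicate 1 summits also gave −6.01, past the threshold, and −0.318 for promoters. The X ratio per protein-coding gene was 0.830. A gene distance of 2 kb gave 763 genes and the nearest start alone 514. The causes were not tested.

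Leaving each replicate out of the rule in turn gave 961 to 1185 members and 1824 to 2057 genes. The RUNX difference ran between 0.847 and 2.25 points from IDR peaks and between 0.477 and 2.56 from other band peaks, with the highest of each, without replicate 2, past the threshold. Promoter differences ran between −5.84 and −2.54 points from IDR peaks and between −0.684 and 4.20 from other band peaks. From 1 to 2 motifs and 2 to 15 six-base sequences passed, and summit distances were 33.5 to 44.0 bases. No paired analysis was possible because all samples belong to 1 group. Chief limits are the unknown read depth, the shared control, that no untagged line was analysed here, the pooling of all cell types and stages, and the 123 members beside IDR peaks.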
